A study of Gallus gallus with 9 samples.

Results

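The proteasome is the large protease that degrades ubiquitin-tagged proteins. Its transcripts were followed here through 30 genes, taken as every gene whose symbol is PSMA, PSMB, PSMC or PSMD followed by a number. They are 30 of 24356 genes in the count tables, of which 13354 carry a symbol. Core particle genes numbered 12 (7 PSMA and 5 PSMB) and regulatory particle genes 18 (5 PSMC and 13 PSMD). All 30 passed the filter on low counts, which left 15475 genes to be tested. The catalytic PSMB5 and PSMB6, the inducible PSMB8 to PSMB11, PSMA8, PSMC4 and PSMD8 were not among the symbols and were not analysed here.

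The core particle is a barrel of stacked rings. Alpha subunits (PSMA) form the outer rings and the gate, and beta subunits (PSMB) form the inner rings, where a few of them cut the substrate. The regulatory particle caps the barrel: its ATPases (PSMC) unfold the substrate, and the PSMD proteins bind ubiquitin, remove it, hold the lid together or help in assembly. In mammals the subunit genes are known to be switched on together by the transcription factor NFE2L1 when proteasome activity falls short.

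Poly(A) RNA came from chicken (Gallus gallus) primordial germ cells, the embryonic precursors of eggs and sperm. Each of 3 groups held 3 libraries: wild-type cells carrying a control vector, cells labelled LIN28A knockout and cells labelled LIN28B knockout, called LIN28B-labelled here because of the transcript check that follows. LIN28A and LIN28B are RNA-binding proteins known for blocking let-7 microRNA maturation. The labels name neither the knockout method, the clone nor the culture behind a library, so each p-value covers only how far libraries of a group differ, which may be technical.

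The targeted genes were checked first. LIN28A (ENSGALG00000036022) was at 160, 144 and 244 CPM (counts relative to library size, TMM-scaled) in control replicates 1, 2 and 3 and at 117, 109 and 17.7 CPM in LIN28A knockout. LIN28B (ENSGALG00000026761) was at 52.3, 45.3 and 61.9 CPM in control at 55.0, 59.6 and 50.3 CPM in the LIN28B-labelled libraries and at 40.3, 41.7 and 38.0 CPM in LIN28A knockout. LIN28A transcript was thus lower in every LIN28A knockout library, far more so in replicate 3, while LIN28B transcript overlapped control in the libraries labelled for its loss and lay below every other library in LIN28A knockout. The fitted log2 fold change was −1.17 ± 0.53 (SE) for LIN28A in LIN28A knockout (edgeR adjusted p = 0.479) and 0.05 ± 0.14 for LIN28B in the libraries labelled for its loss (edgeR adjusted p = 0.929). In LIN28A knockout LIN28B was at −0.41 ± 0.14 against control (edgeR adjusted p = 0.327) and at −0.46 ± 0.14 against the LIN28B-labelled libraries, a difference that passed DESeq2 (adjusted p = 0.0463) and not edgeR (adjusted p = 0.147). The titles and genotypes of the LIN28B-labelled libraries name LIN28B, but their descriptions cite the deposited comparison of LIN28A knockout. The authors' deposited table for LIN28B was within 0.00466 (log2) of the DESeq2 fold changes computed here from these libraries for each proteasome gene. Whether LIN28B was lost in them is not shown by these counts, and every value of that group is one of libraries with this label. A transcript count need not drop when an edit ends the protein.

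Library totals ran from 27689466 to 32226005 counts, so that 3 counts, the limit that a count of 0 allows, stood for 0.0931 to 0.108 CPM. Proteasome genes were far above it, with at least 1024 counts in every library. Replicates 1 and 2 lay close together in each group and replicate 3 stood apart. Over the 30 genes the root mean square log2 difference of replicate 1 from replicate 2 was 0.0829 for control, 0.0603 for LIN28A knockout and 0.0874 for the LIN28B-labelled libraries. The distance of replicate 3 from replicates 1 and 2 was 0.122 and 0.126 for control, 0.266 and 0.282 for LIN28A knockout, and 0.180 and 0.221 for the LIN28B-labelled libraries. Results are therefore given with and without replicate 3 where it moves them.

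Proteasome transcripts took a smaller share of every LIN28A knockout library than of any control library. The 30 genes together held 0.547%, 0.553% and 0.534% of the counts of control replicates 1, 2 and 3. Their exact 95% binomial intervals, which cover counting error only, were 0.544 to 0.549%, 0.550 to 0.556% and 0.531 to 0.536%. In LIN28A knockout the share was 0.497% (0.494 to 0.499%), 0.490% (0.488 to 0.493%) and 0.466% (0.464 to 0.469%). In the LIN28B-labelled libraries it was 0.508% (0.505 to 0.510%), 0.492% (0.489 to 0.494%) and 0.529% (0.527 to 0.532%). The group means were 0.544 ± 0.00978% for control, 0.484 ± 0.0161% for LIN28A knockout and 0.510 ± 0.0189% for the LIN28B-labelled libraries (SD, n = 3 each). Neither knockout group overlapped control in this share, though replicate 3 of the LIN28B-labelled libraries came close to the lowest control library and their counting intervals overlapped. These are bulk libraries, in which fewer cells of a type and less RNA per cell cannot be told apart.

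The sums of both particles were lower on average in both knockout groups. The summed level of the 12 core genes was 2020, 2104 and 2018 CPM in control, 1782, 1762 and 1685 CPM in LIN28A knockout and 1902, 1837 and 1946 CPM in the LIN28B-labelled libraries. That of the 18 regulatory genes was 3386, 3404 and 3510 CPM in control, 3043, 3018 and 3139 CPM in LIN28A knockout and 3169, 3037 and 3422 CPM in the LIN28B-labelled libraries. The mean core sum was thus 85.1% of control in LIN28A knockout and 92.6% in the LIN28B-labelled libraries. For the regulatory sum these were 89.3% and 93.5%. Only the regulatory sum of the LIN28B-labelled libraries overlapped control, through its replicate 3.

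The balance between the particles varied with replicate number more than with group. The ratio of the core to the regulatory sum was 0.597, 0.618 and 0.575 in control, 0.586, 0.584 and 0.537 in LIN28A knockout and 0.600, 0.605 and 0.569 in the LIN28B-labelled libraries. Replicate 3 was lowest in each group, and the groups overlapped. At each replicate number LIN28A knockout had the lowest ratio, though the labels do not explain what libraries of 1 number share.

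**Figure D1:**
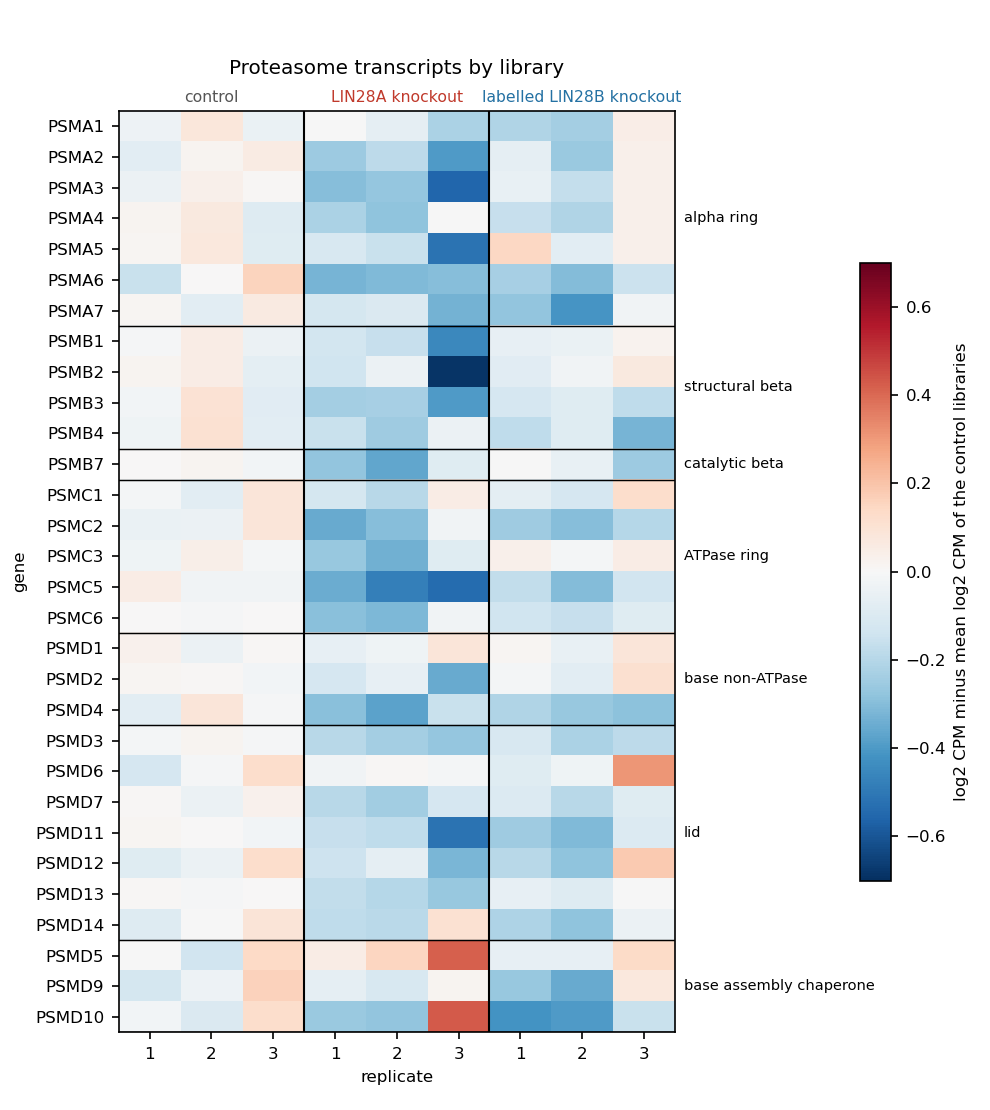
Heat map of the 30 proteasome genes (rows, grouped by role) in the 9 libraries (columns, by group and replicate); colour gives log2 CPM minus the mean log2 CPM of the 3 control libraries. LIN28A knockout replicates 1, 2 and 3 have 29, 28 and 24 of 30 genes below the control mean, and the LIN28B-labelled libraries have 27, 30 and 15.

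LIN28A knockout was compared with control to see which proteasome transcripts differ when LIN28A is targeted. The fitted log2 fold change lay below 0 for 27 of 30 genes, beside 47.3% of all tested genes, and its median was −0.21, beside 0.02 over all tested genes. All 12 core genes lay below 0 (median −0.25) and 15 of 18 regulatory genes did (median −0.18). No single gene passed the test: edgeR's quasi-likelihood test called 0 of 30 at an adjusted p under 0.05, where it called 0.00646% of all tested genes. At an unadjusted p under 0.05, 10 genes were lower and 0 higher, beside 5.13% of all tested genes lower. The count in either direction was 15 with the replicate number as a block and ran from 3 to 14 when 1 library was left out. It was 3 without control replicate 2, 5 without control replicate 3 and 14 without LIN28A knockout replicate 3. Such counts from other fits, here and in the comparisons below, take either direction. The share over all genes in those fits is not given, so they cannot be read against that of the main fit. In 17 genes every LIN28A knockout library lay below every control library, beside 9.78% of all tested genes, and 0 genes lay above in that way. DESeq2 called 1 gene lower, PSMC5, beside 1.22% of the genes it gave an adjusted p.

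The direction was shared by all 3 replicates, and the particles differed most in replicate 3. The median log2 CPM minus the control mean over the 30 genes was −0.17, −0.20 and −0.19 in LIN28A knockout replicates 1, 2 and 3, against −0.01, 0.00 and 0.00 in control. Core genes had medians of −0.19, −0.21 and −0.36, with 12 of 12 below the control mean in each library. Regulatory genes had medians of −0.17, −0.20 and −0.06, with 17, 16 and 12 of 18 below it. Replicate 3 thus held the lowest core median and the regulatory median nearest to control. The 18 regulatory genes include 3 base assembly chaperones, PSMD5, PSMD9 and PSMD10, whose median in replicate 3 was 0.42. In that library the medians of the ATPase, other base and lid genes were −0.03, −0.16 and −0.26. The median over all tested genes was 0.00, 0.00 and −0.01 in LIN28A knockout replicates 1, 2 and 3.

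Without LIN28A knockout replicate 3, 29 of 30 genes lay below 0 with a median of −0.20, and edgeR called 1 gene lower, PSMC5, beside 0.967% of all genes tested in that fit. With replicates 1 and 2 only of every group, 28 genes lay below 0 with a median of −0.19, and edgeR called 19 lower and 0 higher, beside 14.8% of all genes tested. That fit takes its error from pairs of libraries that lie very close together. It also keeps only the LIN28A knockout libraries that retained most of the LIN28A transcript.

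The alpha ring genes lay below control in all 7 members, with log2 fold changes from −0.37 to −0.09 and a median of −0.25. PSMA3 (ENSGALG00000012039), an alpha subunit, was at 182, 192 and 188 CPM in control, 152, 155 and 127 CPM in LIN28A knockout and 180, 167 and 192 CPM in the LIN28B-labelled libraries. Every LIN28A knockout library was below all the others, and its replicate 3 was lowest. The log2 fold change against control was −0.37 ± 0.11 (SE) and did not pass (edgeR adjusted p = 0.274).

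PSMA6 (ENSGALG00000010060), another alpha subunit, was at 112, 125 and 139 CPM in control, 99.8, 101 and 102 CPM in LIN28A knockout and 106, 101 and 113 CPM in the LIN28B-labelled libraries. Its LIN28A knockout libraries were nearly level, and the spread lay in control. The log2 fold change of PSMA6 was −0.32 ± 0.11 in LIN28A knockout (edgeR adjusted p = 0.327) and −0.23 ± 0.11 in the LIN28B-labelled libraries (edgeR adjusted p = 0.566). PSMA5 (ENSGALG00000039624), also of the alpha ring, was at 134, 140 and 125 CPM in control, 123, 119 and 92.9 CPM in LIN28A knockout and 147, 126 and 136 CPM in the LIN28B-labelled libraries. Its low value was again that of LIN28A knockout replicate 3, and the fold change of −0.25 ± 0.13 did not pass (edgeR adjusted p = 0.525).

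Beta ring genes lay below control in all 5 members. The structural beta genes, PSMB1 to PSMB4, whose proteins shape the inner ring without cutting, ranged from −0.29 to −0.15 with a median of −0.25 on the log2 scale. PSMB3 (ENSGALG00000001597) was at 130, 141 and 125 CPM in control, 111, 112 and 99.9 CPM in LIN28A knockout and 121, 124 and 116 CPM in the LIN28B-labelled libraries. The 3 groups did not overlap, with control highest and LIN28A knockout lowest. Control and the LIN28B-labelled libraries nearly touched, at 124.5 CPM in control replicate 3 and 123.9 CPM in LIN28B-labelled replicate 2. The log2 fold change of PSMB3 in LIN28A knockout was −0.29 ± 0.10 (edgeR adjusted p = 0.331). In the LIN28B-labelled libraries it was −0.13 ± 0.10 (edgeR adjusted p = 0.724), and between the knockout groups −0.16 ± 0.10 (edgeR adjusted p = 0.405). PSMB7 (ENSGALG00000001103), the subunit with trypsin-like activity and the 1 constitutive catalytic subunit measured, was at 291, 294 and 286 CPM in control and 240, 225 and 274 CPM in LIN28A knockout. In the LIN28B-labelled libraries PSMB7 was at 289, 280 and 244 CPM, where replicate 3 alone was clearly low. Its fold changes were −0.24 ± 0.11 (edgeR adjusted p = 0.477) and −0.10 ± 0.11 (edgeR adjusted p = 0.802).

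The ATPase ring held the gene with the smallest p-value among the 30. PSMC5 (ENSGALG00000000349), an ATPase of the base, was at 172, 163 and 163 CPM in control, 130, 119 and 114 CPM in LIN28A knockout and 147, 134 and 151 CPM in the LIN28B-labelled libraries. All 3 groups were separate, with the LIN28B-labelled libraries in between. The log2 fold change of PSMC5 in LIN28A knockout was −0.45 ± 0.10 and did not pass edgeR over all libraries (adjusted p = 0.155). It passed edgeR without LIN28A knockout replicate 3, at −0.41 (adjusted p = 0.0478), and DESeq2 over all libraries (adjusted p = 0.00230). With the replicate number as a block PSMC5 was at −0.45 ± 0.08 and did not pass (edgeR adjusted p = 0.0882). In the authors' deposited table PSMC5 had a log2 fold change of −0.45 and an adjusted p of 0.0136, the 1 proteasome gene called there, where 1.91% of 15799 genes were.

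The other ATPase genes divided by library. The ATPase medians were −0.29 and −0.32 in LIN28A knockout replicates 1 and 2 and −0.03 in replicate 3. PSMC3 (ENSGALG00000008108), an ATPase of the same ring, was at 202, 211 and 204 CPM in control, 171, 163 and 194 CPM in LIN28A knockout and 211, 204 and 213 CPM in the LIN28B-labelled libraries. PSMC2 (ENSGALG00000008236), a further ATPase, was at 165, 166 and 181 CPM in control, 134, 139 and 168 CPM in LIN28A knockout and 143, 139 and 149 CPM in the LIN28B-labelled libraries. In both genes LIN28A knockout replicate 3 lay closer to control than replicates 1 and 2 did. Their log2 fold changes in LIN28A knockout were −0.23 ± 0.10 for PSMC3 (edgeR adjusted p = 0.434) and −0.22 ± 0.11 for PSMC2 (edgeR adjusted p = 0.523).

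The other base subunits were not alike. PSMD4 (ENSGALG00000028505), a ubiquitin receptor, was at 156, 174 and 163 CPM in control, 134, 126 and 147 CPM in LIN28A knockout and 142, 136 and 135 CPM in the LIN28B-labelled libraries. Both knockout groups lay below every control library and overlapped each other. The log2 fold changes of PSMD4 were −0.27 ± 0.10 (edgeR adjusted p = 0.356) and −0.26 ± 0.10 (edgeR adjusted p = 0.526). PSMD1 (ENSGALG00000007664), a scaffold of the base chosen here after its values were seen, was the most even of the 30 genes. Its highest library was 1.10 times its lowest, and its log2 fold change in LIN28A knockout was 0.00 ± 0.09 (edgeR adjusted p = 0.999).

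Lid genes lay below control in all 7 members in LIN28A knockout, from −0.28 to −0.01 with a median of −0.18. In 4 of them the groups did not overlap, beside 9.78% of all tested genes lower in that way. PSMD14 (ENSGALG00000011128), the lid enzyme that removes ubiquitin chains from substrates, was at 162, 172 and 183 CPM in control, 153, 151 and 186 CPM in LIN28A knockout and 148, 142 and 167 CPM in the LIN28B-labelled libraries. It was highest in replicate 3 of each group, and the groups overlapped. Its log2 fold changes were −0.08 ± 0.12 (edgeR adjusted p = 0.856) and −0.18 ± 0.12 (edgeR adjusted p = 0.681).

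The 3 base assembly chaperones, PSMD5, PSMD9 and PSMD10, which bind ATPase subunits during assembly and leave the finished particle, lay on both sides of control. Their median log2 fold change in LIN28A knockout was 0.00, with 1 of 3 below 0. By library their median was −0.06, −0.11 and 0.42 in LIN28A knockout, against −0.02, −0.10 and 0.14 in control, so that replicate 3 was high in both groups. PSMD10 (ENSGALG00000008287), also known as gankyrin, was at 47.8, 45.2 and 52.8 CPM in control, 40.4, 40.0 and 65.3 CPM in LIN28A knockout and 36.3, 36.8 and 43.4 CPM in the LIN28B-labelled libraries. LIN28A knockout straddled control, with replicates 1 and 2 below it and replicate 3 above it. The fold change of PSMD10 was 0.00 ± 0.19 there. PSMD5 (ENSGALG00000001637), named here after its values were seen, was at 38.1, 34.7 and 42.1 CPM in control and 39.6, 42.5 and 51.1 CPM in LIN28A knockout. That log2 fold change of 0.21 ± 0.14 was the highest of the 30 genes and did not pass (edgeR adjusted p = 0.639).

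**Figure D2:**
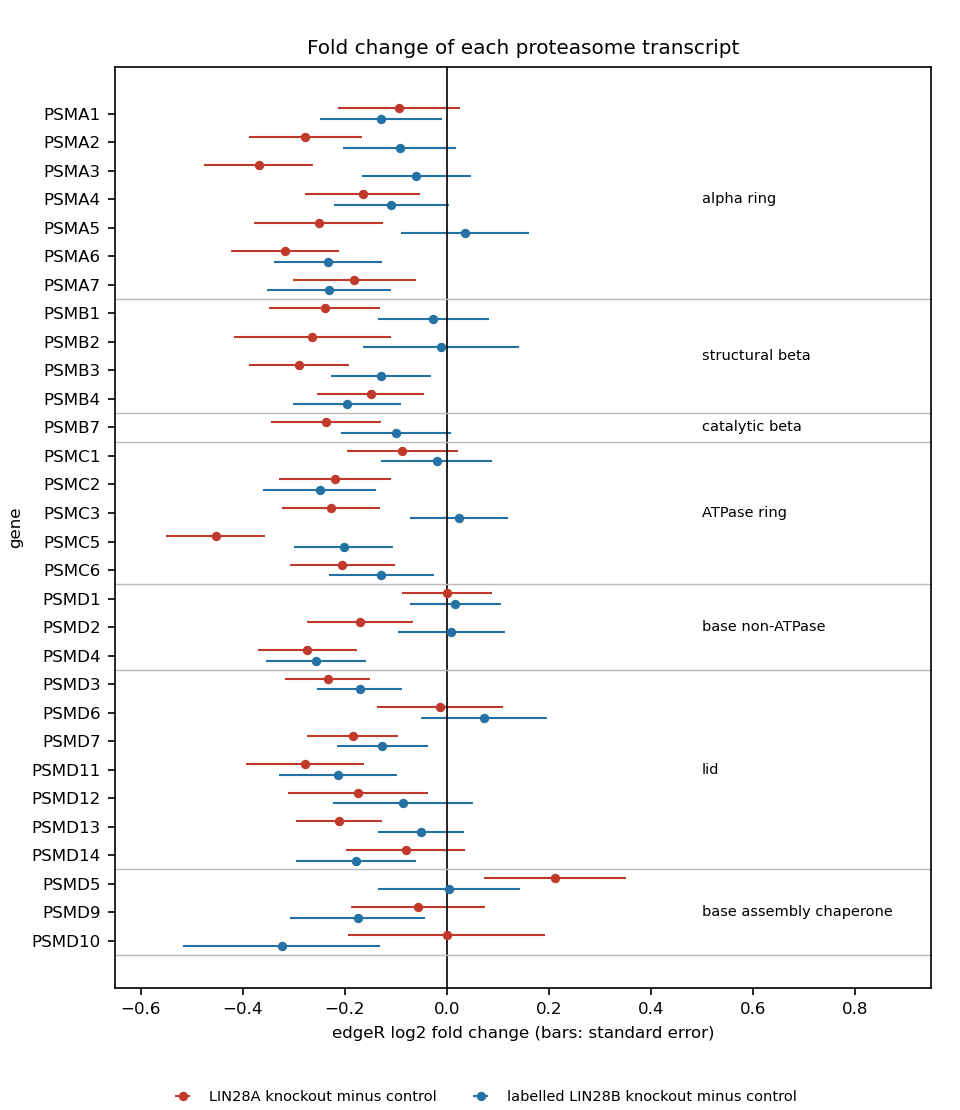
Fitted log2 fold change against control (x axis; bars are standard errors) of each proteasome gene (y axis, grouped by role) in LIN28A knockout and in the LIN28B-labelled libraries. In LIN28A knockout 27 of 30 points lie below 0, and in the LIN28B-labelled libraries 24 do.

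**Figure D3:**
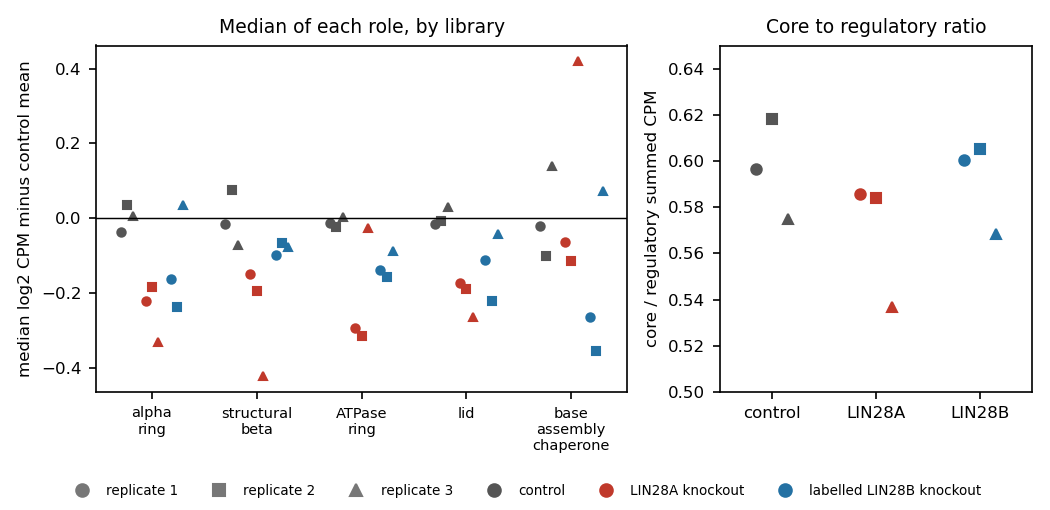
Left, median log2 CPM minus the control mean over the genes of 5 roles, 1 point per library, with shape for replicate and colour for group. Right, ratio of summed core to summed regulatory CPM per library, on an axis that starts at 0.5; replicate 3 is lowest in each group, at 0.575, 0.537 and 0.569.

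Markers of germ cells and of other cell types were read in the same libraries. The 10 germ cell markers measured, of 12 listed, summed to 4475 to 4580 CPM in control, 3716 to 4133 CPM in LIN28A knockout and 4449 to 4591 CPM in the LIN28B-labelled libraries. The lower sum in LIN28A knockout was mostly that of DAZL, an RNA-binding protein of germ cells, at 1804, 1903 and 2103 CPM in control and 1341, 1393 and 1506 CPM in LIN28A knockout. Of the 10 genes 6 lay below 0 and 4 above in LIN28A knockout (median −0.04). PRDM14 and TDRD15 were above every control library, at 0.42 and 0.38 on the log2 scale, and DAZL and CXCR4 were below every control library. Of all 15475 tested genes 1270 lay above and 1514 below in that way. CXCR4 had the largest fold change of the list, −1.48 ± 0.30 (edgeR adjusted p = 0.126). It was at 40.0, 40.5 and 24.3 CPM in control and 13.6, 14.7 and 9.16 CPM in LIN28A knockout. In LIN28A knockout DESeq2 called CXCR4 and DAZL lower and PRDM14 higher, beside 181 lower and 203 higher of 14865 genes with an adjusted p. PRDM14 and DAZL were not particular to LIN28A knockout. In the LIN28B-labelled libraries PRDM14 was also above every control library (0.42, DESeq2 adjusted p = 0.000433). DAZL was below every control library there as well (−0.23, DESeq2 adjusted p = 0.453), while TDRD15 and CXCR4 overlapped control (0.00 and −0.12). All 10 fibroblast markers were measured, and they summed to 595, 586 and 998 CPM in control, 1419, 1373 and 472 CPM in LIN28A knockout and 506, 453 and 1025 CPM in the LIN28B-labelled libraries. The collagen genes COL1A1, COL1A2 and COL3A1 made up most of these sums. Of the 10 genes 6 lay below 0 and 4 above in LIN28A knockout (median −0.02), and LUM, at 5.36, 3.23 and 0.187 CPM in control, was at 0.663, 1.22 and 0.0689 CPM there. The fold changes of these 10 genes ran from −2.16 to 2.59 on the log2 scale. At an unadjusted edgeR p under 0.05, 2 were higher and 0 lower, beside 849 and 794 of 15475 tested genes. LIN28A knockout replicate 3 moved this balance: without it 3 of the 10 fibroblast markers lay below 0 (median 0.19). DCN and POSTN, which mark fibroblasts, were at 0 in at least 1 library and reached 3.85 and 6.28 CPM (without TMM scaling) in their highest library. Leukocyte markers (4 tested of 8) summed to 15.1 to 19.1 CPM in control, 20.7 to 28.1 CPM in LIN28A knockout and 15.0 to 16.4 CPM in the LIN28B-labelled libraries, with IKZF1 and CSF1R at 0 in at least 1 library. Endothelial markers (7 tested of 8) summed to 17.8 to 37.0, 7.65 to 38.1 and 37.7 to 46.8 CPM in these groups, with CDH5 at 0 in at least 1 library. The 1 erythroid marker tested of 8 reached at most 0.680 CPM in any library. The part of these cell types in the proteasome values was not tested.

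The libraries labelled LIN28B knockout were compared with the same control libraries, so that this comparison shares its control values with that of LIN28A knockout. Proteasome genes lay below control in 24 of 30 cases, beside 50.2% of all tested genes, with a median log2 fold change of −0.12, beside 0.00 over all tested genes. Core genes lay below in 11 of 12 (median −0.10) and regulatory genes in 13 of 18 (median −0.13). Here edgeR called 0 of 30, where it called 0.0129% of all tested genes. At an unadjusted p under 0.05, 2 genes were lower (PSMD4 and PSMC2) and 0 higher, beside 4.42% of all tested genes lower, which is a share near the background; with the replicate number as a block 5 genes passed that limit and 0 were called. With 1 library left out, 0 to 8 genes passed it, 0 without control replicate 2 or replicate 2 of the LIN28B-labelled libraries, 7 without replicate 3 of that group and 8 without LIN28A knockout replicate 3; without control replicate 3, LIN28A knockout replicate 1 or 2, or replicate 1 of the LIN28B-labelled libraries 1 gene did. In 10 genes the groups did not overlap, all of them lower, beside 11.4% of all tested genes. DESeq2 called 0 lower and 0 higher, beside 76 lower (0.491%) and 59 higher of 15466 genes with an adjusted p.

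In the median over the 30 genes, replicates 1 and 2 carried this difference and replicate 3 did not show it. The median over the 30 genes was −0.12, −0.18 and 0.01 in replicates 1, 2 and 3 of the LIN28B-labelled libraries, with 27, 30 and 15 genes below the control mean. Alpha ring medians were −0.16, −0.24 and 0.04, and lid medians were −0.11, −0.22 and −0.04. ATPase medians were −0.14, −0.16 and −0.09, structural beta medians were −0.10, −0.07 and −0.08, and PSMB7 was at −0.01, −0.05 and −0.25. The other base genes had medians of −0.01, −0.08 and 0.09, and the assembly chaperones of −0.26, −0.36 and 0.07. Replicate 3 was thus below the control mean in some roles and above it in others. With replicates 1 and 2 only of every group edgeR called 15 lower and 0 higher, beside 16.2% of all genes tested. In the authors' deposited table, 0 proteasome genes were called and 25 lay below 0, where 4.60% of 14840 genes were called.

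By role, the members below control in the LIN28B-labelled libraries were 6 of 7 alpha genes (median −0.11), 4 of 4 structural beta genes (−0.08), 4 of 5 ATPase genes (−0.13), 1 of 3 other base genes (0.01), 6 of 7 lid genes (−0.13) and 2 of 3 assembly chaperones (−0.17). PSMC2 lay below every control library, at −0.25 ± 0.11 on the log2 scale (edgeR adjusted p = 0.560). PSMC5 did so as well, at −0.20 ± 0.10 (edgeR adjusted p = 0.589). The largest fold change of the 30 genes was that of the chaperone PSMD10, at −0.32 ± 0.19, in which all 3 libraries lay below control without passing (edgeR adjusted p = 0.646). PSMC3 and PSMA5 were at 0.02 ± 0.10 and 0.04 ± 0.13.

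**Figure D4:**
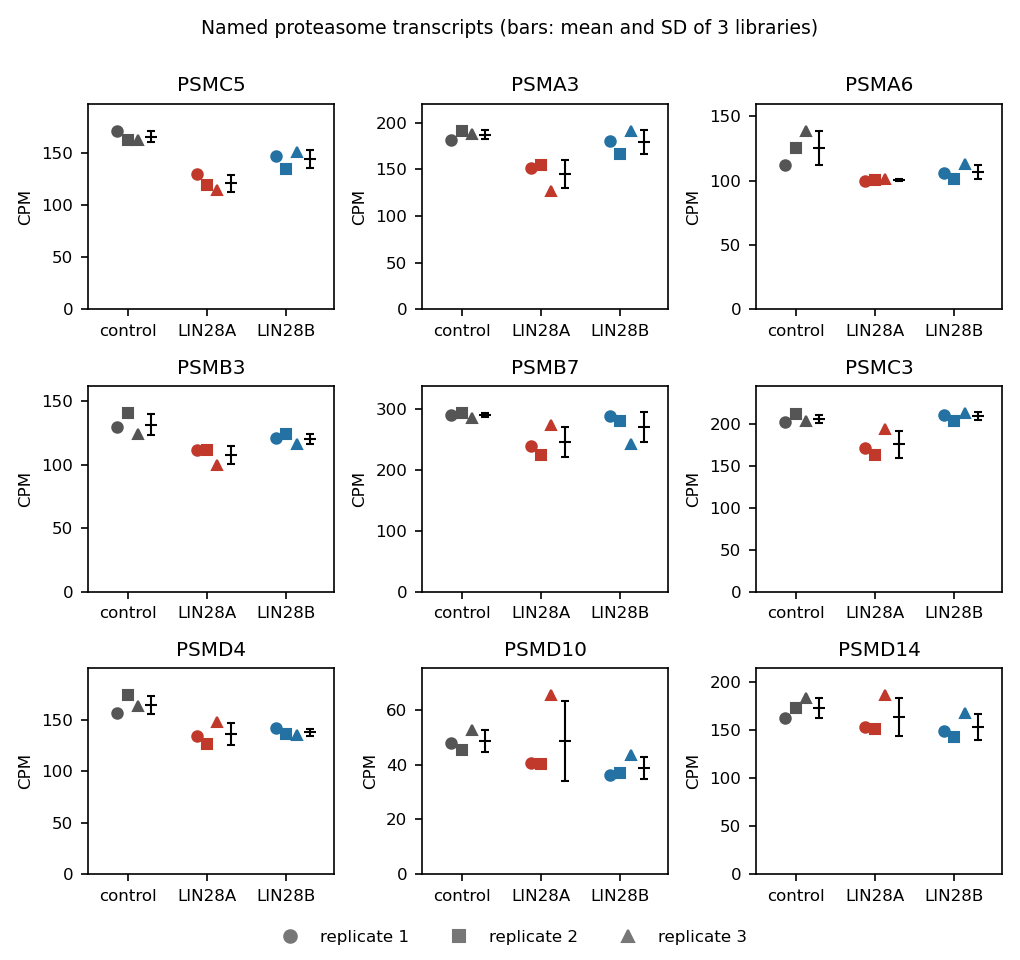
TMM-scaled CPM (y axes, from 0) of 9 proteasome genes in control, LIN28A knockout (LIN28A) and the LIN28B-labelled libraries (LIN28B); shapes are replicates, and black bars are the mean and SD of 3 libraries. The 3 groups do not overlap in PSMC5 or PSMB3, though in PSMB3 control and the LIN28B-labelled libraries nearly touch (124.5 and 123.9 CPM). PSMD10 in LIN28A knockout spans 40.0 to 65.3 CPM.

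LIN28A knockout was then set directly against the LIN28B-labelled libraries. The log2 fold change lay below 0 for 22 of 30 genes, beside 49.6% of all tested genes, with a median of −0.07. It was below 0 in 9 of 12 core genes (median −0.15) and in 13 of 18 regulatory genes (median −0.06). The test in edgeR called 0 of 30, where it called 0.517% of all tested genes. At an unadjusted p under 0.05, 4 genes were lower (PSMA3, PSMC3, PSMC5 and PSMA5) and 0 higher, beside 7.96% of all tested genes lower. With 1 library left out this count ran from 1 to 5, with 1 without replicate 1 of the LIN28B-labelled libraries and 2 without LIN28A knockout replicate 2. In 7 genes every LIN28A knockout library lay below the other group, beside 12.6% of all tested genes. DESeq2 called 0 lower and 0 higher, beside 427 lower (2.76%) and 577 higher of 15466 genes with an adjusted p. With replicates 1 and 2 only of every group, edgeR called 6 lower, beside 19.2% of all genes tested, and 4 higher, beside 20.2%, which are shares near or under the background. A difference between the knockout groups in proteasome transcripts was therefore not detectable for any single gene over all libraries.

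The smallest p-values in that contrast belonged to PSMA3, PSMA5 and PSMC3, which were near control in the LIN28B-labelled libraries, and to PSMC5. For PSMA3 the log2 fold change was −0.31 ± 0.11 (edgeR adjusted p = 0.188), and for PSMA5 it was −0.29 ± 0.13 (edgeR adjusted p = 0.272). For PSMC3 and PSMC5 it was −0.25 ± 0.10 each (edgeR adjusted p = 0.222 and 0.226). PSMD10 had the largest absolute value, 0.32 ± 0.19 (edgeR adjusted p = 0.394), and its groups overlapped. For PSMB7 (−0.14 ± 0.11), PSMD4 (−0.02 ± 0.10) and PSMD14 (0.10 ± 0.12) the standard error was as large as the difference or nearly so.

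Across the 9 libraries the median proteasome transcript varied less than the median gene of like level. The SD of log2 CPM had a median of 0.147 over the 30 genes, against 0.200 over 5089 other genes in the same range of average log2 CPM and 0.317 over all tested genes. Among the 30 genes the SD ran from 0.0552 in PSMD1 to 0.270 in PSMD10, whose highest library was 1.80 times its lowest. The next most variable was PSMB2 (ENSGALG00000026421), a structural beta subunit named after its values were seen. It was at 173, 177 and 163 CPM in control, 155, 166 and 106 CPM in LIN28A knockout and 162, 168 and 179 CPM in the LIN28B-labelled libraries, so that LIN28A knockout replicate 3 lay below all others.

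Genes that act with the proteasome were read from 3 further lists. Of 20 genes for assembly and activation 15 were tested, and 11 lay below 0 in LIN28A knockout (median −0.11) and 9 in the LIN28B-labelled libraries (median −0.07), with 0 called in either. POMP (ENSGALG00000017090), the chaperone that matures the core particle, was at 52.1, 53.1 and 70.8 CPM in control, 57.3, 53.1 and 39.6 CPM in LIN28A knockout and 52.9, 47.2 and 67.5 CPM in the LIN28B-labelled libraries. Replicate 3 was the highest POMP library in 2 groups and the lowest in LIN28A knockout, and the fold change there was −0.23 ± 0.19 (edgeR adjusted p = 0.720). ADRM1 (ENSGALG00000005200), a ubiquitin receptor of the base, was at 96.4, 99.9 and 85.5 CPM in control and 86.3, 85.9 and 72.9 CPM in LIN28A knockout, which is −0.20 ± 0.11 on the log2 scale with overlapping groups (edgeR adjusted p = 0.565).

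PSMF1, an inhibitor of the proteasome, TXNL1, a thioredoxin-like protein that binds the regulatory particle, and AKIRIN2, which brings proteasomes into the nucleus, had the smallest p-values of that list, all in the contrast of the knockout groups. PSMF1 (ENSGALG00000000259) had 87.1, 77.6 and 108 CPM in LIN28A knockout against 72.1, 74.1 and 76.4 CPM in the LIN28B-labelled libraries, a difference of 0.29 ± 0.13 on the log2 scale (edgeR adjusted p = 0.267). TXNL1 (ENSGALG00000033862) was at 108, 103 and 79.6 CPM and at 120, 117 and 117 CPM in these groups, a difference of −0.28 ± 0.12 on the log2 scale (edgeR adjusted p = 0.270). AKIRIN2 (ENSGALG00000015791) was at 256, 246 and 339 CPM and at 226, 211 and 242 CPM, a difference of 0.31 ± 0.14 on the log2 scale (edgeR adjusted p = 0.281). None of the 3 overlapped between these groups, and none passed. Of all 15475 tested genes 1806 lay higher and 1952 lower without overlap in this contrast. The 3 genes were chosen by their p-values, so their lack of overlap is no added support. The same holds for the proteasome genes named above by p-value. It also holds for NFE2L1, MAFF, SQSTM1 and UBQLN1 below, whose p-values were among the smallest of their lists.

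Of 18 genes for transcription and stress control 13 were tested. In LIN28A knockout 6 lay below 0 (median 0.05) and in the LIN28B-labelled libraries 11 did (median −0.13), with 0 called by edgeR in either. Without LIN28A knockout replicate 3 the median in LIN28A knockout was −0.10, with 7 below 0. NFE2L1 (ENSGALG00000011937), the activator of proteasome genes known from mammals, was at 283, 285 and 315 CPM in control, 256, 262 and 338 CPM in LIN28A knockout and 222, 203 and 238 CPM in the LIN28B-labelled libraries. The last group lay below all the other libraries. The log2 fold change of NFE2L1 was −0.05 ± 0.13 in LIN28A knockout (edgeR adjusted p = 0.932) and −0.41 ± 0.13 in the LIN28B-labelled libraries (edgeR adjusted p = 0.476), and 0.37 ± 0.13 between them (edgeR adjusted p = 0.188). LIN28A knockout replicates 1 and 2 lay below every control library and replicate 3 above. Without that replicate 3 the value in LIN28A knockout was −0.19 ± 0.10 (edgeR adjusted p = 0.350). The mean proteasome sums were lowest in LIN28A knockout. A link between NFE2L1 transcript and these sums was not tested.

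MAFF and BACH1, leucine zipper proteins that bind the same kind of DNA element as NFE2L1, differed more between the knockout groups. MAFF (ENSGALG00000012277), a small MAF partner, was at 17.1, 19.3 and 19.0 CPM in control, 25.2, 24.4 and 24.0 CPM in LIN28A knockout and 8.73, 7.87 and 14.5 CPM in the LIN28B-labelled libraries. All 3 groups were separate. MAFF was higher in LIN28A knockout than in the LIN28B-labelled libraries by 1.24 ± 0.22 on the log2 scale (edgeR adjusted p = 0.0488), a call lost with only the groups compared in the fit (adjusted p = 0.181), with DESeq2 size factors (adjusted p = 0.0512) and without any 1 of 7 of the 9 libraries. BACH1 (ENSGALG00000015828), a repressor, was at 27.3, 26.4 and 43.0 CPM in control, 35.1, 34.6 and 66.2 CPM in LIN28A knockout and 16.5, 17.5 and 29.1 CPM in the LIN28B-labelled libraries. It was highest in replicate 3 of each group, and the difference of 1.10 ± 0.32 between the knockout groups did not pass (edgeR adjusted p = 0.140); it passed DESeq2 (adjusted p = 0.0223).

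Of 22 genes for ubiquitin supply and delivery 17 were tested, and 11 lay below 0 in LIN28A knockout (median −0.10) as well as in the LIN28B-labelled libraries (median −0.06), with 0 called by edgeR in either. SQSTM1 (ENSGALG00000035804), which carries ubiquitin-tagged proteins to autophagy, was at 37.8, 43.2 and 41.4 CPM in control, 56.3, 60.0 and 96.0 CPM in LIN28A knockout and 31.5, 32.2 and 26.6 CPM in the LIN28B-labelled libraries. All 3 groups were separate, with LIN28A knockout highest. Between the knockout groups SQSTM1 was higher in LIN28A knockout by 1.23 ± 0.20 on the log2 scale (edgeR adjusted p = 0.0399), a call lost with only the groups compared in the fit (adjusted p = 0.154) and without any 1 of 8 of the 9 libraries. Against control its log2 fold change in LIN28A knockout was 0.79 ± 0.20, which passed DESeq2 (adjusted p = 0.0167) and not edgeR (adjusted p = 0.208).

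UBQLN1 (ENSGALG00000012585), a shuttle factor that delivers ubiquitin-tagged proteins to the proteasome, was at 100, 104 and 109 CPM in control, 121, 123 and 143 CPM in LIN28A knockout and 95.5, 91.2 and 102 CPM in the LIN28B-labelled libraries. LIN28A knockout lay above control in every library, while the LIN28B-labelled libraries overlapped control. Its fitted difference from control in LIN28A knockout was 0.31 ± 0.10 on the log2 scale, which did not pass (edgeR adjusted p = 0.329). Between the knockout groups the difference was 0.42 ± 0.10, which passed DESeq2 (adjusted p = 0.00625) and not edgeR (adjusted p = 0.0958).

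**Figure D5:**
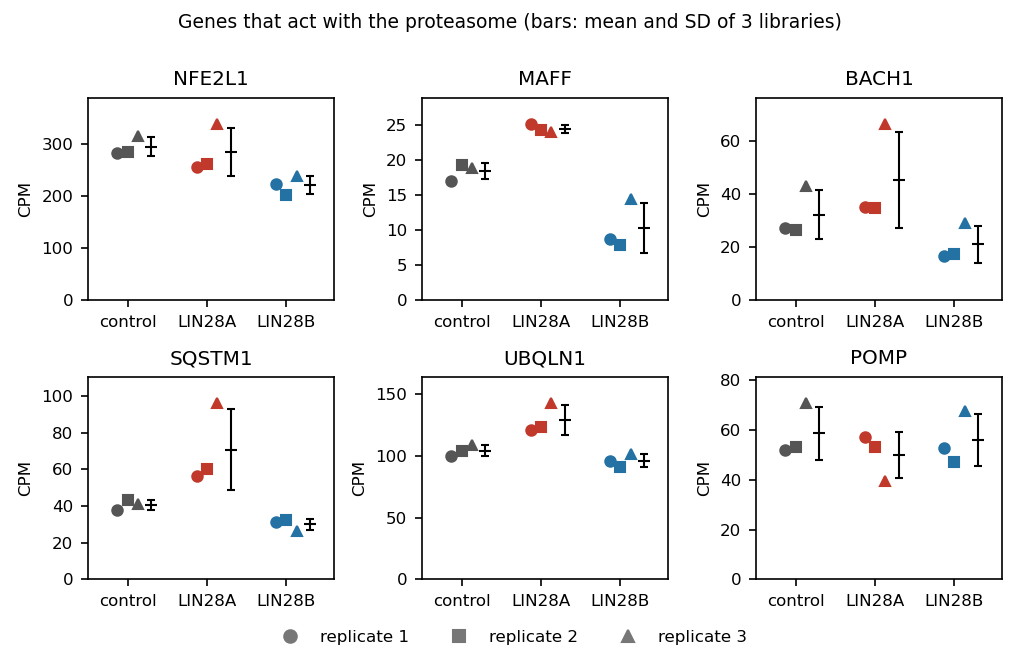
TMM-scaled CPM (y axes, from 0) of 6 genes that act with the proteasome in control, LIN28A knockout (LIN28A) and the LIN28B-labelled libraries (LIN28B); shapes are replicates, and black bars are the mean and SD of 3 libraries. SQSTM1 is at 56.3 to 96.0 CPM in LIN28A knockout, above all other libraries, and NFE2L1 is lowest in the LIN28B-labelled libraries, at 203 to 238 CPM.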

How the data were processed

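The authors deposited 1 table per library of whole-number counts per Ensembl gene. Tools named in the submitters' processing notes, without a role, are featureCounts 2.0.3, HISAT2 2.1.0, edgeR 3.38.4 and DESeq2 1.36.0, and the builds named are galGal6 and GRCg6a. How strands were counted, and with which annotation release, is not given in the sources used here. Overlapping genes and near-identical copies may therefore share or lose reads. The authors' deposited comparison tables, per the file headers, give log2 fold changes with standard errors of each knockout against control. Raw and adjusted p-values stand beside them in these deposited tables, per the file headers. Symbols came from these tables. No genome of the same build was at hand, so no coordinates or sequences are printed.

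Counts were fitted with R 4.3.3 and edgeR 4.0.16 (default filterByExpr, TMM scaling, quasi-likelihood F test of all 9 libraries on group, Benjamini-Hochberg adjusted p under 0.05 over all tested genes; common biological coefficient of variation 0.265). A standard error is the absolute log2 fold change over the square root of F. DESeq2 1.42.0, other scalings and filters, the replicate block, fits of only the groups compared, replicates 1 and 2 only, and fits without each library were alternatives. The proteasome genes, the pathway and marker lists and the alternatives were chosen with earlier results of these data known.

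Named were the 4 proteasome genes with the smallest p and the 1 with the largest fold change per comparison, PSMB7, PSMD4, PSMD14, LIN28A, LIN28B, NFE2L1, POMP, ADRM1 and, per pathway list, the 3 genes with the smallest p; others were named after their values were seen. A pathway gene that this rule selects is not reported here. DDI2 is in 2 pathway lists. The pairing of replicate numbers, which the labels do not explain, was checked over 10042 genes through deviations from the group mean. Same-numbered libraries correlated at 0.388, 0.237 and 0.371 for LIN28A knockout with control. For the LIN28B-labelled libraries with control these were 0.390, 0.440 and 0.560, each above 0.1. Replicates 1 and 2 also correlated across numbers, at 0.299 and 0.316 for LIN28A knockout with control and at 0.417 and 0.434 for the LIN28B-labelled libraries with control. Replicate 3 stood apart in every group, so this check cannot show that numbers 1 and 2 pair. The main fit therefore uses group only, and the replicate block is an alternative.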

Additional observations from a re-analysis of the deposited data

Results flagged for a closer look

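No proteasome gene met the rule for a closer look. The rule took genes that edgeR called between the knockout groups. It also took genes whose knockout groups lay wholly on opposite sides of the control mean. A gene lower in both groups, as PSMC5 was, could meet it only through such a call. Of the pathway genes named, 4 lay on opposite sides of the control mean in the knockout groups, in all 3 libraries of each. MAFF and SQSTM1 were higher in LIN28A knockout than in the LIN28B-labelled libraries by 1.24 and 1.23 on the log2 scale, differences that edgeR called (adjusted p = 0.0488 and 0.0399). BACH1 and UBQLN1 differed by 1.10 and 0.42 in the same contrast. All 3 LIN28A knockout libraries lay above the control mean and all 3 LIN28B-labelled libraries below it, but the edgeR test of the difference did not pass (adjusted p = 0.140 and 0.0958). DESeq2 called both (adjusted p = 0.0223 and 0.00625). Some tested pathway genes that were not named lay on opposite sides in the same way. LIN28A knockout was higher in NFE2L2, by 0.50 on the log2 scale in that contrast. It was lower in UCHL5, FAF2, NPLOC4 and UBE4B, at −0.17, −0.36, −0.14 and −0.19. None of these differences was called by edgeR. The share of all tested genes on opposite sides was not counted.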

How the results depend on the processing

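Counts of proteasome genes called lower in LIN28A knockout against control were 0 over all libraries, 1 by DESeq2, 19 with replicates 1 and 2 only, and 0 to 1 when 1 library was left out (1 without LIN28A knockout replicate 3). In the LIN28B-labelled libraries against control this count was 0, or 15 with replicates 1 and 2 only. Between the knockout groups it was 0, or 6 lower and 4 higher with replicates 1 and 2 only. With the replicate block 0 were called in all 3 comparisons. Between the knockout groups the same-numbered correlations were 0.116, 0.0644 and 0.103, not all above 0.1. The block nonetheless brought the differences of BACH1 and UBQLN1 between the knockout groups past the threshold (adjusted p = 0.00576 and 0.0300). Counts over all genes moved more. For LIN28A knockout against control edgeR called 1 gene, 13 with the block, 453 without LIN28A knockout replicate 3 and 4724 with replicates 1 and 2 only, and DESeq2 called 384; for the LIN28B-labelled libraries these were 2, 24, 166, 4898 and 135, and between the knockout groups 80, 890, 474, 6196 and 1004. Over the alternatives the core and regulatory medians (log2) ran from −0.29 to −0.21 and from −0.20 to −0.16 in LIN28A knockout against control. For the LIN28B-labelled libraries they ran from −0.14 to −0.07 and from −0.16 to −0.09, with the core value of −0.07 without replicate 2 of that group. Between the knockout groups the core median of −0.15 was −0.07 with replicates 1 and 2 only. The regulatory median of −0.06 was −0.03 without LIN28A knockout replicate 2 and 0.00433 without replicate 3 of the LIN28B-labelled libraries. Of the 30 genes, 26, 22 and 18 kept their direction in all 17 alternatives in the 3 comparisons.

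Leaving out 1 library turned the sign of some values near 0. Over these fits the log2 fold change in the LIN28B-labelled libraries against control ran from −0.0544 to 0.171 for LIN28B and from −0.0550 to 0.379 for LIN28A, and between the knockout groups from −0.00537 to 0.170 for PSMD14 and from −0.0776 to 0.0323 for PSMD4. Over the same fits the adjusted p of the difference between the knockout groups ran from 0.0116 to 0.256 for MAFF and from 0.00394 to 0.239 for SQSTM1. The causes were not tested. Fits with replicates 1 and 2 only take their error from libraries that lie close together, and their calls are no added support. Proteasome genes all had at least 1024 counts in every library. Leaving out LIN28A knockout replicate 3 changed the standard errors against control unevenly. In LIN28A knockout that of PSMB2 went from 0.154 to 0.0872, and that of PSMA6 from 0.106 to 0.107.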
